A study of Drosophila melanogaster with 5 samples.

Results

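The open chromatin of GABA neurons was described from 3 ATAC-seq libraries of adult *Drosophila melanogaster* heads. The members were genomic intervals listed as open in library 1 that shared at least 1 bp with an open interval of both library 2 and library 3. Of the 49055 intervals of library 1, 35803 (73.0%) met this rule and are termed shared intervals here. The 5 peak lists of the series, which also holds 2 libraries of dopamine neurons (TH-Gal4), contain 243664 intervals in all. Nuclei were labelled with GFP through the vGAT-Gal4 driver, named after the vesicular GABA transporter gene *VGAT*, and collected by flow cytometry after flies grown at 25 °C had been frozen for 5 min at -80 °C. The driver defines the cells, so the libraries hold whatever nuclei had enough GFP to pass the stringent sorting gate that was used. The sex and age of the flies, and whether the 3 libraries came from separate sorts, were not given in the sources used here, so differences between the libraries may be technical.

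GABA is the main inhibitory transmitter of the fly brain. Neurons make it from glutamate with the decarboxylase Gad1, load it into synaptic vesicles with VGAT, and break it down through the transaminase Gabat and the dehydrogenase Ssadh. ATAC-seq uses the Tn5 transposase to insert sequencing adapters into DNA that is not covered by nucleosomes, so promoters and enhancers in use appear as piles of fragments. Each pile has at least 1 summit, and the value used below is its fold enrichment, the height of the pile over the local background of the same library. Heights were also recovered as whole numbers, termed pileup and given in fragments here, although the files do not tell whether MACS2 counted reads or fragments. Within a library every summit was ranked, and its percentile gives the share of summits with the same or a lower fold enrichment. Where a gene had no summit in a library, its percentile there was set to 0.

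The 3 peak lists held 49055, 50314 and 64779 intervals with 84055, 81638 and 107219 summits for libraries 1, 2 and 3. Library 3 stood apart: 17833 of its intervals (27.5%) met no interval of the other libraries, compared with 5.98% for library 1 and 9.37% for library 2. Its fold enrichments were also lower, with a highest value of 16.01 compared with 21.5 and 19.9, while its library-wide background was higher, with 21.8 fragments compared with 16.9 and 17.95. It was also the most deeply sequenced of the GABA libraries, and the part of depth in these differences was not tested. The rule on shared intervals leaves out all intervals found in library 3 alone. Without library 3, 39546 intervals of library 1 would be shared.

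Strong intervals recurred and weak ones often did not. Of the weakest decile of library 1 intervals, 35.6% were found in both other libraries, and the share was higher in every further decile, up to 99.98% in the strongest. The shared intervals had a median fold enrichment of 2.84, and the 13252 others of library 1 had 2.04. Their median widths were 203 and 99 bp. Wide intervals meet an overlap of 1 bp more easily, and the part of width in the recurrence was not tested. Over the 35803 shared intervals, Pearson's correlation of the log2 fold enrichment was 0.92 between libraries 1 and 2, 0.87 between libraries 1 and 3, and 0.84 between libraries 2 and 3. Spearman's correlation of the pileup was 0.91, 0.85 and 0.82 for the same pairs. These values describe the lists, since weak intervals missing from a library were left out by the rule and neighbouring intervals are not independent. Summits lay at almost the same base in each library, with a median offset of 9, 10 and 10 bp for the same pairs, and the offset was at most 50 bp at 80.1%, 79.99% and 78.5% of the intervals.

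**Figure D1:**
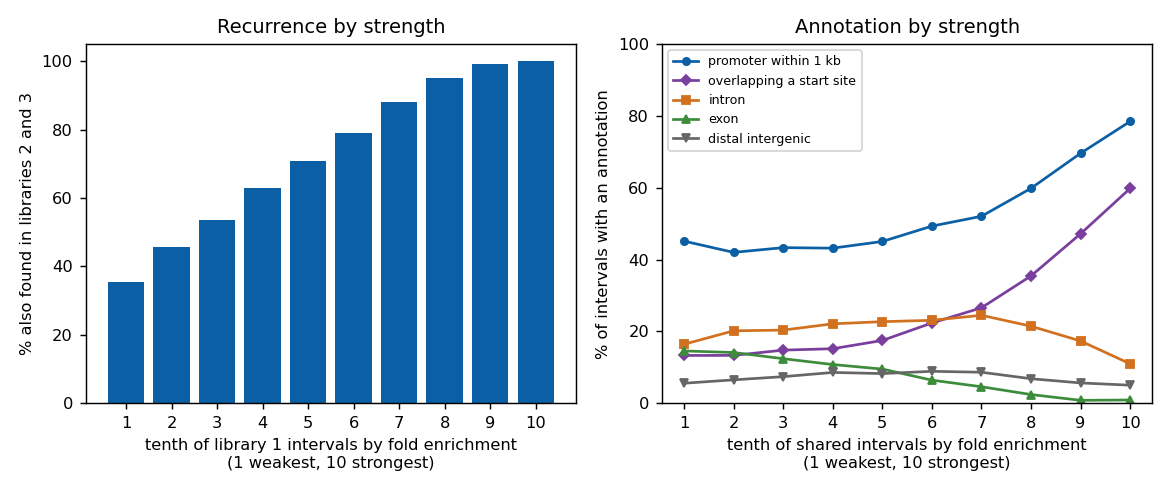
Left, share of library 1 intervals also found in libraries 2 and 3 (%), by decile of fold enrichment. Right, share of the shared intervals with an annotation (%) that fall in each class, by decile of fold enrichment. Recurrence goes from 35.6% to 99.98%. Intervals that met an annotated region overlapping a start site make up 13.3% of the weakest and 59.8% of the strongest decile.

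The shared intervals covered 9.84 Mb. Their median width was 203 bp, with quartiles of 129 and 349 bp and a range from 73 to 2226 bp. Relative to gene number the chromosome arms were alike, with 6373 intervals on 2L, 7107 on 2R, 7361 on 3L, 9143 on 3R and 5819 on X, which is between 2.40 and 2.69 per protein-coding gene. Chromosome 4 had no peak in any list, so genes on it, such as the membrane GABA transporter gene *Gat*, could not be assessed. A single summit was present in 51.0% of the shared intervals and 5 or more in 1864 of them. Where an interval had several summits, neighbours were a median of 127, 128 and 126 bp apart in libraries 1 to 3, and 75.03%, 75.1% and 74.8% of these distances were between 100 and 250 bp. The spacing was therefore alike in the 3 libraries.

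The authors annotated regions of their comparison table by class and by the nearest transcription start site, and 34948 shared intervals met such a region. Promoter regions within 1 kb of a start site held 18449 of them (52.8%), introns 19.9%, promoter regions between 1 and 2 kb 9.47%, exons 7.67%, distal intergenic DNA 7.14% and 3′ UTRs 2.15%. Among all 80590 regions of the table, 39.8% were promoters within 1 kb, 13.5% were exons and 16.3% were promoters between 1 and 2 kb. The shared intervals therefore held more near promoters and fewer exons than the table, but their promoter share was close to the 51.3%, 51.1% and 47.2% of all intervals of libraries 1, 2 and 3. The table covers regions of both neuron types, and 39.1% of its regions met a shared interval. The authors' mean signal over all 5 libraries had a median of 158 in these regions and of 61.2 in the rest.

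Regions at start sites dominated the strongest intervals. In 9278 cases (26.5%) the region met by a shared interval overlapped an annotated start site. The share was 13.3% in the weakest decile of fold enrichment and 59.8% in the strongest. The interval itself need not reach that start site. Exons followed the opposite course, from 14.6% to 0.92%. The share of introns was highest at 24.5% in decile 7 and was 10.99% in decile 10. Of the 100 intervals with the highest fold enrichment, 87 were promoters within 1 kb and 77 met a region that overlaps a start site. At promoters within 1 kb the median fold enrichment was 3.16, 3.22 and 2.75 in libraries 1 to 3, and in exons it was 2.34, 2.19 and 2.44. Of the 13842 protein-coding genes on the 5 arms, 8793 (63.5%) were the nearest gene of at least 1 shared interval.

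The label of the libraries was checked at the genes *Gad1*, *VGAT* and the LIM homeobox gene *Lim3*, and all 3 had strong summits at a start site in every library. *Gad1* (RefSeq, chr3L:4074077-4088744) had 6 shared intervals within its span and 2 kb on each side. The strongest, chr3L:4088611-4089232, overlapped a start site and had a fold enrichment of 8.24, 8.56 and 5.97 in libraries 1, 2 and 3, with pileups of 229, 262 and 158 fragments. Its summit lay 293, 286 and 286 bp upstream of the 5′ end of the gene. At an internal start site of *Gad1*, chr3L:4085771-4086170, the fold enrichment was 5.40, 4.72 and 3.75. The highest *Gad1* summit reached a mean percentile of 97.9 ± 0.13 (SD, n = 3).

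*VGAT* had 5 shared intervals, and the strongest was narrow and held a single summit. At this interval, chr2R:14201193-14201396, which overlapped the start site, the fold enrichment was 11.6, 13.5 and 7.76 and the pileup 469, 555 and 382 fragments. This was the 99.6 ± 0.23 percentile (SD, n = 3). The local background there was 39.4, 40.3 and 48.3 fragments, above the library-wide values of 16.9, 17.95 and 21.8. The driver is named after this gene, and DNA of *VGAT* carried by the driver construct cannot be told apart from the gene itself in these files. A neighbouring interval inside the gene, chr2R:14200520-14200892, met a region 297 bp from the start site and had a fold enrichment of 6.77, 6.37 and 4.77.

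*Lim3*, which encodes a LIM homeodomain factor of motor neurons and interneurons, had an open site near each end. The interval chr2L:19083297-19084293 overlapped a start site deep in the gene, with its strongest summit 24930 bp from the 5′ end in every library. Its fold enrichment was 11.8, 10.98 and 7.58 with pileups of 262, 264 and 206 fragments. The interval at the 5′ end, chr2L:19108337-19109196, had a fold enrichment of 9.52, 9.83 and 6.94. Next to the latter, inside the gene, chr2L:19107944-19108229 had 4.18, 4.06 and 2.50, and chr2L:19107629-19107779 had 2.57, 2.43 and 2.19. Along the long stretch from there to the internal start site, only library 3 had summits apart from those of the intervals named, with fold enrichments between 1.84 and 2.90.

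**Figure D2:**
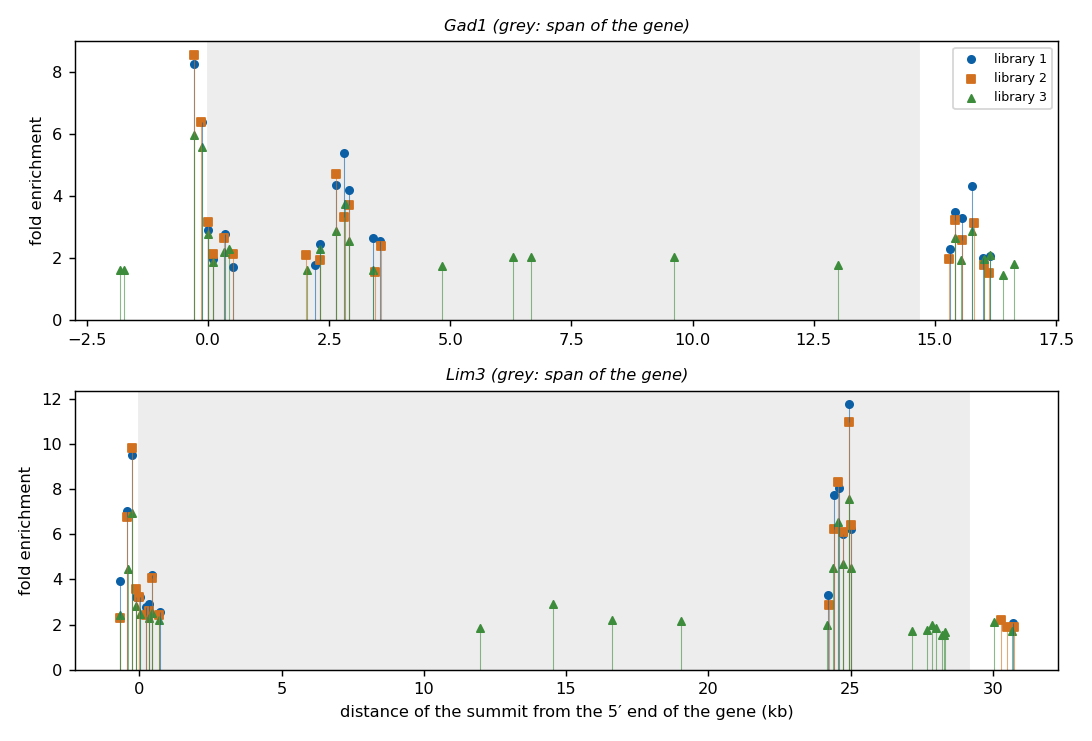
Fold enrichment of every summit in and around *Gad1* and *Lim3* against its distance from the 5′ end of the gene (kb), for libraries 1 (circles), 2 (squares) and 3 (triangles). The highest *Gad1* summits, 8.24, 8.56 and 5.97, lie just upstream of the 5′ end, and those of *Lim3*, 11.8, 10.98 and 7.58, lie 24930 bp inside the gene.

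The genes of GABA breakdown had weaker sites. *Gabat* had 7 shared intervals with a highest fold enrichment of 4.01, 4.01 and 3.25, and *Ssadh* had 5 with 4.91, 6.38 and 3.55. Their mean percentiles were 83.7 and 91.0, compared with a median of 83.7 over all protein-coding genes measured the same way. A longer gene has a wider window that may hold more summits and start sites. No group of genes here was matched for gene length. All 4 genes of synthesis, transport and breakdown that were matched and lie on the 5 arms had a shared interval at a start site, while 39.0% of all protein-coding genes did.

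All 6 genes of GABA receptors had shared intervals, as did 79.7% of all protein-coding genes in the same kind of window. Of the 6, 4 had one at a start site, compared with 39.0% of all protein-coding genes. *Rdl*, which encodes the main subunit of the ligand-gated chloride channel, had 15 shared intervals, the most of the group. Its highest fold enrichment was 7.79, 8.19 and 6.74, at chr3L:9182085-9182813 over a start site, with pileups of 494, 519 and 343 fragments. *Lcch3*, another subunit gene of this channel family, had the highest fold enrichment of the receptors, 10.5, 9.997 and 7.81. *Grd*, also of this family, had 4.97, 5.59 and 4.30, and its start site was not in a shared interval. Among the metabotropic receptors, which signal through G proteins, *GABA-B-R2* had 7.43, 7.80 and 4.82, *GABA-B-R1* had 6.36, 5.18 and 4.57, and *GABA-B-R3* had 6.08, 4.77 and 3.89. The start site of *GABA-B-R1* was not in a shared interval, although the gene had 7 of them. The mean percentiles of the 6 genes were between 91.2 and 99.2.

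LIM homeobox genes set neuron identity in several animals. A start site was in a shared interval in 6 of 6 matched cases, compared with 39.0% of all protein-coding genes. The median of the mean percentiles of the LIM genes was 99.7, compared with 83.7. *tup*, the fly Islet gene, had 10 shared intervals and a highest fold enrichment of 17.7, 15.4 and 11.5. *ap*, which also patterns the wing, had 16.7, 15.8 and 12.6. *Lim1* reached 13.6, 13.9 and 7.59 and *Awh* 13.1, 13.3 and 9.47. The lowest of the group was *CG4328* with 6.92, 8.65 and 5.49, still at a mean percentile of 97.1. Except at *CG4328*, these values exceeded those of *Gad1* in each library.

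Other homeobox genes were similarly high, with a median percentile of 99.6. Of 27 such genes, 23 had a start site in a shared interval, compared with 39.0% of all protein-coding genes. For *scro*, among those not open, no start site was listed. Some of the 27 had further start sites outside the shared intervals, such as *ct*, with 1 of 3 inside. The 3 highest were *hth*, a TALE homeobox gene, the Hox gene *Antp*, and the head-patterning gene *oc*. Their highest fold enrichments were 19.4, 17.0 and 16.01 at *hth*, 18.5, 17.5 and 11.2 at *Antp*, and 18.3, 17.0 and 10.9 at *oc*. No start site of *Antp* was in a shared interval. The lowest was the Hox gene *Scr*, with 5.02, 7.07 and 4.08. Of 27 other transcription factor genes with roles in neurons, 22 had an open start site, and *sr*, *mamo* and *bab2* were the highest. For *Hr51*, among those not open, no start site was listed. At *bab2*, a BTB domain factor, the values were 15.5, 14.8 and 10.6, but its start site was not in a shared interval. *Jra*, the fly Jun gene, was the lowest with 2.59, 2.67 and 2.21.

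General neuronal genes ranked high. Some of them are long, such as *Sh* with 138941 bp, and gene length was not matched between groups. All 16 pan-neuronal genes had a start site in a shared interval, compared with 39.0% of all protein-coding genes. The median percentile of the pan-neuronal genes was 98.0, compared with 83.7. The RNA-binding protein gene *fne* had a highest fold enrichment of 15.2, 12.7 and 10.2, the sodium pump subunit gene *nrv3* had 10.6, 9.81 and 8.64, and the synaptotagmin gene *Syt1* had 10.3, 9.57 and 7.99. Even the lowest, the active zone gene *Rim*, had 5.46, 5.20 and 4.93. Of the 14 genes of potassium and other voltage-gated channels, 13 had an open start site. *KCNQ*, *Shaw* and *Sh* led them with 14.1, 15.1 and 11.3, with 13.99, 13.8 and 9.48, and with 14.04, 12.8 and 8.34, and *Elk* was the lowest with 5.36, 5.61 and 4.84.

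Genes that define other transmitter types were not uniformly closed. The vesicular glutamate transporter gene *VGlut* had an open start site and a highest fold enrichment of 12.1, 11.9 and 7.90, above that of *Gad1* in each library. All 3 cholinergic genes had open start sites, with 7.57, 7.72 and 5.60 at the choline transporter gene *ChT* and 6.997, 6.22 and 4.99 at the nested genes *ChAT* and *VAChT*, which share these sites. *Tbh*, which makes octopamine, had 11.9, 11.2 and 6.85, while *Tdc2*, the decarboxylase that makes tyramine, had 2.40, 2.27 and 3.07. The start sites of *ple* (tyrosine hydroxylase) and *DAT* (dopamine transporter) were not in a shared interval. Their highest fold enrichments in the window were 3.68, 3.43 and 3.20 and 4.61, 6.22 and 4.54. *Ddc*, which serves dopamine and serotonin synthesis, had an open start site and 5.12, 4.88 and 3.04. *Vmat*, the vesicular monoamine transporter, also had an open start site, with 2.57, 2.53 and 2.50 in its window. An open start site was thus present at 2 of 4 dopaminergic genes (50%), compared with 39.0% of all protein-coding genes. Neither serotonergic start site was shared, with 5.86, 4.94 and 3.58 in the window of *SerT* and 3.97, 5.24 and 2.96 in that of *Trhn*. How far nuclei of such neurons passed the gate was not tested.

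Marker genes of glia and photoreceptors were not closed as groups. Of 11 glial genes, 5 (45.5%) had a start site in a shared interval, compared with 39.0% of all protein-coding genes, and the median percentile was 92.8, compared with 83.7. *wrapper*, *Gs2* and *nrv2* were the highest, with 8.16, 7.83 and 6.55, with 7.67, 7.85 and 6.28, and with 7.82, 7.12 and 5.77. The start site of *wrapper* was not in a shared interval. The glial master regulator *repo* had only 2.31, 2.74 and 2.69 with its start site outside the shared intervals, and the astrocyte gene *alrm* had 2.38, 1.79 and 2.53. Of 13 photoreceptor genes, 8 had an open start site. The 3 highest summits of the list were at *norpA* (7.35, 7.60 and 5.99), *gl* (8.63, 6.34 and 5.76) and *Rh3* (7.92, 6.17 and 5.31), and the start site of *Rh3* was not in a shared interval. The lowest of the list was *chp*, a membrane protein gene of photoreceptors, with 2.47, 2.39 and 2.18. The median percentile of the photoreceptor genes was 85.4, near the 83.7 of all protein-coding genes.

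Muscle and fat body genes were the lowest groups, without matching for gene length. No start site of 10 muscle genes was in a shared interval, compared with 39.0% open over all protein-coding genes. The median percentile of the muscle genes was 43.6, compared with 83.7. A library without a summit in the window counted as percentile 0 in these means. *Mlc1* had the highest fold enrichment of the muscle genes, 5.98, 6.256 and 5.96. It was followed by *TpnC73F* with 3.44, 3.51 and 2.85 and *sls* with 3.24, 2.69 and 2.99. *Act57B* had summits in library 3 alone, the highest at 2.15. No start site of 6 fat body genes was shared either, although none was listed for *Lsp2* and *to*, and the median percentile was 42.4. *Lsp2* had 4.52, 3.98 and 3.54, *Yp1* had 2.45, 2.16 and 2.68, and *Yp2* had 2.01, 2.59 and 2.68. Summits of *to* were listed in library 3 alone, the highest at 2.02. Of 5 hemocyte genes only *Pxn* (5.17, 5.23 and 4.87) had an open start site, and none was listed for *eater*. The mean percentiles of *NimC1*, *eater* and *Hml* were 81.0, 76.5 and 48.0. Of 3 epidermal genes, *grh* had an open start site (6.97, 6.70 and 4.88), *e* had 3.14, 3.59 and 3.51, and no summit was listed in the window of *y*. For comparison, 7 of 8 ubiquitous genes had open start sites. *Hsc70-4* had 7.87, 9.32 and 6.36, *Act5C* had 6.60, 7.27 and 5.87, *eEF1alpha1* had 7.19, 5.98 and 4.40, and *Gapdh1* was the lowest with 4.52, 4.86 and 3.26. The part of other cell types in the signal was not tested.

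**Figure D3:**
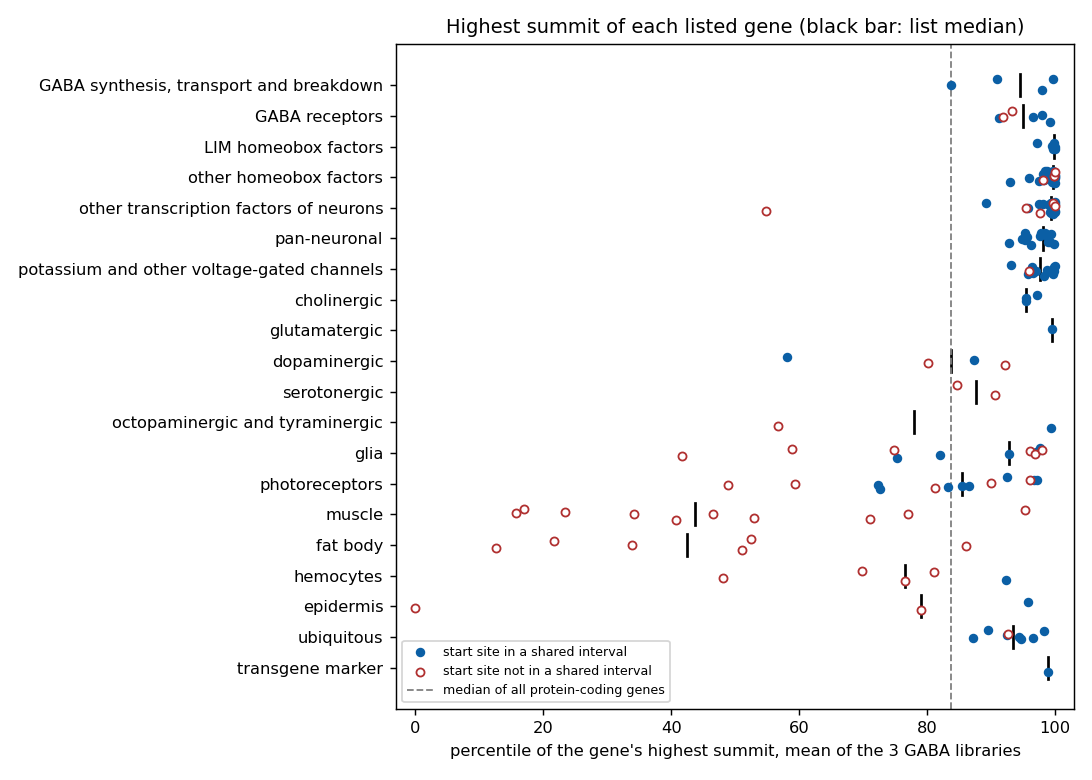
Percentile of the highest summit of each listed gene (mean of the 3 libraries, x axis) by gene list (y axis). Filled points have a start site in a shared interval, open points do not, black bars are list medians and the dashed line is the median of all protein-coding genes, 83.7. Muscle and fat body genes sit lowest, with medians of 43.6 and 42.4, and homeobox genes highest, with 99.7 and 99.6. The lists were not matched for gene length, and a library without a summit counted as percentile 0.

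By fold enrichment, several of the strongest open sites of GABA neurons lay at transcription factor genes. The 10 strongest summits of each library fell into 16 shared intervals. Of these, 9 were nearest to a transcription factor gene and 11 met a region that overlaps a start site. The share of all shared intervals at transcription factor genes was not determined. These intervals were chosen by fold enrichment, so their values are descriptions. In all 3 libraries the interval over the *sr* start site (chr3R:18121378-18122169) was in the top 10, with a fold enrichment of 21.5, 18.1 and 15.9 and pileups of 595, 536 and 430 fragments. *sr* encodes a zinc finger factor of the Egr family. The same held for the posterior Hox gene *Abd-B* (chr3R:16934106-16935075), with 21.3, 18.6 and 15.3, and for the GATA factor gene *grn* (chr3R:8181405-8182162), with 20.7, 17.6 and 13.7. *Abd-B* is known for the posterior abdomen, while these nuclei came from heads.

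The remaining intervals were in the top 10 of 1 or 2 libraries, but each was at or above the 99.7 percentile in all 3. *robo2*, an axon guidance receptor gene, had 20.3, 19.5 and 12.3, the Hox gene *pb* had 19.5, 18.2 and 10.7, and the T-box gene *mid* had 19.4, 19.9 and 11.9. At the start site of *hth* (chr3R:10614185-10614991) the fold enrichment of 16.01 was the highest of library 3, and libraries 1 and 2 had 19.4 and 17.0. The homeobox gene *otp*, the zinc finger genes *mamo* and *opa*, and *lncRNA:CR45899*, which lies in the window of *Antp*, had values between 18.5 and 19.3 in library 1. They had between 16.8 and 17.9 in library 2 and between 11.2 and 13.6 in library 3. *SLO2*, a potassium channel gene, had 17.2, 16.5 and 13.6.

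At 3 of the 16 intervals the summit lay inside another gene than the one with the nearest start site. An intronic interval was credited to the syntaxin gene *Syx1A*, in a region 12285 bp from its start site. It lay within the span of *eIF4EHP* and had 17.9, 16.2 and 14.4. Another, credited to *snRNA:U1:95Ca*, lay within *CG34355* and had 17.5, 15.9 and 13.5. An interval annotated as a 3′ UTR site of *Cib2* lay within the span of *otp*, with 14.99, 17.5 and 12.9. The interval of *lncRNA:CR46006* was the exception to the order of the libraries, with 13.1, 12.4 and 13.8, and at the other 15 intervals library 1 exceeded library 3.

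**Figure D4:**
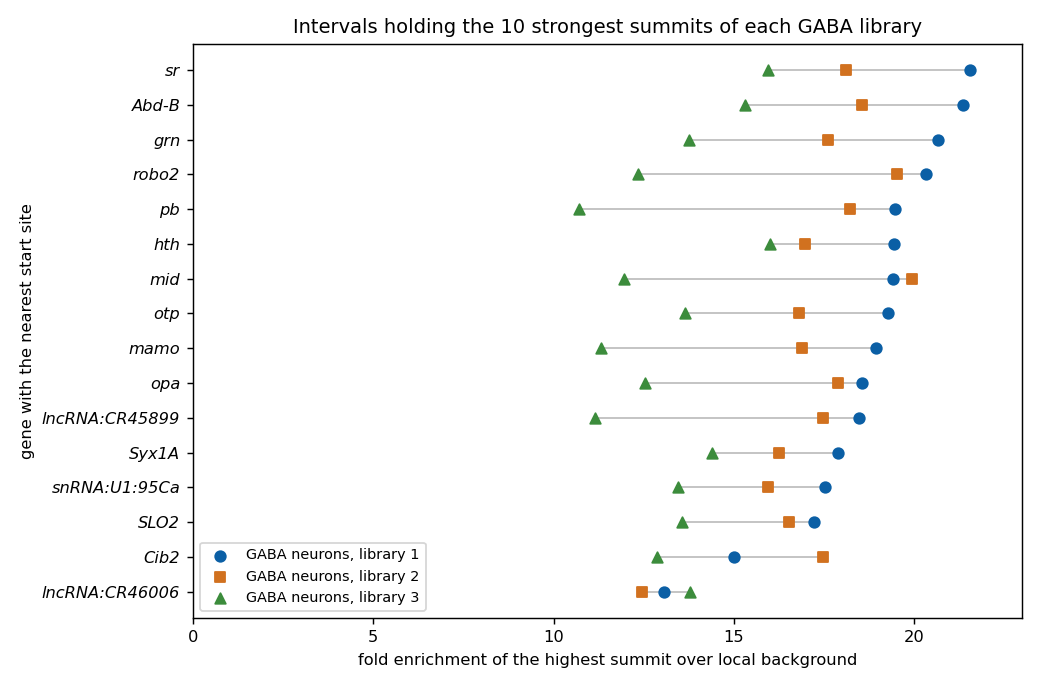
Fold enrichment over local background (x axis) of the 16 intervals that hold the 10 strongest summits of each library, with the gene of the nearest start site on the y axis. Points are libraries 1 (circles), 2 (squares) and 3 (triangles). Library 3 lies below library 1 at all intervals except *lncRNA:CR46006*.

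Ranking by pileup in place of fold enrichment gave other sites. The 10 highest pileups of each library fell into 14 shared intervals, none of which was among the 16 above. *HmgZ*, which encodes an HMG box chromatin protein, had the highest pileup of each library at chr2R:21704375-21704996, with 1020, 877 and 735 fragments, but a fold enrichment of only 5.78, 5.52 and 5.50. The local background there was 176, 158 and 133 fragments. In library 1, next came 3 neighbouring intervals credited to the zinc finger gene *cbt*, within the span of *ush*, with between 827 and 856 fragments. Each met a region that overlaps a start site of *cbt*. The same intervals had between 711 and 826 fragments in library 2 and between 583 and 622 in library 3. The homeobox gene *dve* combined a high pileup of 774, 660 and 577 fragments with a high fold enrichment of 15.8, 14.4 and 13.04. *ph-p*, a Polycomb group gene, had 772, 689 and 451 fragments, and *14-3-3epsilon* had 730, 681 and 598.

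The local background differed between these sets of intervals. Fold enrichment is pileup over background, so choosing by 1 or the other favours such a difference. The ranges are therefore descriptions of the chosen sets. It was between 16.9 and 36.6 fragments in library 1 at the intervals strongest by fold enrichment, and between 47.9 and 176 at those strongest by pileup. In library 2 the ranges were 17.95 to 36.3 and 45.0 to 158 fragments, and in library 3 they were 21.8 to 34.8 and 43.3 to 133. They did not overlap in any library. Over all summits, Spearman's correlation between fold enrichment and pileup was 0.72, 0.78 and 0.71 in libraries 1 to 3. Among the intervals of the 500 summits with the highest fold enrichment in library 1, 257 of 416 were also reached by the corresponding summits of both other libraries, and by pileup 262 of 348.

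**Figure D5:**
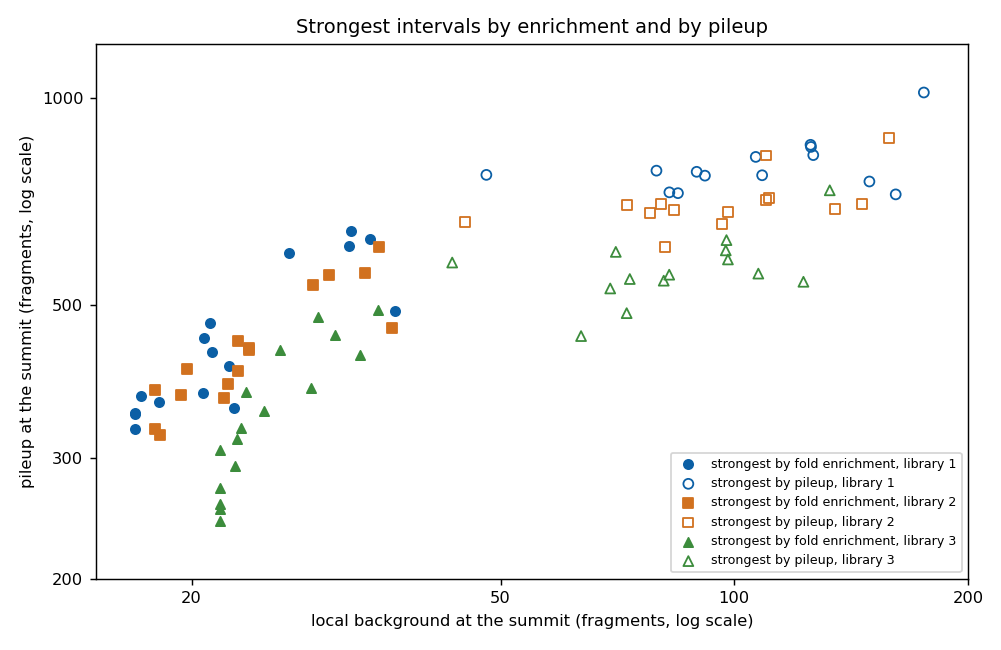
Pileup (y axis, fragments, log scale) against local background (x axis, fragments, log scale) for the 16 intervals strongest by fold enrichment (filled) and the 14 strongest by pileup (open), in libraries 1 (circles), 2 (squares) and 3 (triangles). Filled points stay at or below a background of 36.6 fragments and open points start at 43.3. Fold enrichment is pileup over background, so the choice of the sets favours this split.

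The genes with the most open sites were mostly long. The 69105 summits of library 1 within shared intervals, where a table region gave a nearest gene, were credited to 10375 genes, with a median of 4 summits per gene and 50 or more at 39 genes. *Rbp6*, an RNA-binding protein gene of the Musashi family, had the most, with 109, 108 and 102 summits of libraries 1 to 3 in 46 intervals. The RNA-binding protein gene *shep* followed with 91, 86 and 86 summits in 51 intervals, *Tlk*, a kinase gene, with 89, 79 and 78, and *bru3*, an RNA-binding protein gene, with 88, 85 and 78. In the order of the first 15, *Svil* and *Tet* came next with 80 each in library 1, followed by the potassium channel gene *Sh* with 75, *mtd* with 73 and *lilli* with 69. The ecdysone-induced genes *Eip75B* and *Eip93F* and the cAMP phosphodiesterase gene *dnc* had 68 each, *CG32264* had 67, *hwt* had 66 and *px* had 65. Of these 15 genes, 13 were also among the first 15 of library 2 and 11 among those of library 3. Their median length was 92952 bp, compared with 2306 bp over all genes with a shared interval. Over all these genes, Spearman's correlation between summits and gene length was 0.32. Short genes could also be credited with many, such as *CG12347* (1007 bp, 59 summits), which was chosen after its values were seen. Its 29 intervals covered 8464 bp, more than the gene itself, and 0 met a region at its start site. *CG12347* lies within the span of *Rim*, and the highest fold enrichments of both genes were 5.46, 5.20 and 4.93. Its count therefore describes the surroundings of the gene.

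When summits were divided by gene length among genes with at least 10 summits, the first 10 were all short RNA genes of at most 100 bp. They were *tRNA:Thr-AGT-1-1*, *tRNA:Asp-GTC-1-6*, *sncRNA:400*, *mir-1010*, *tRNA:Phe-GAA-1-7*, *tRNA:Phe-GAA-1-3*, *mir-4947*, *mir-289*, *mir-9375* and *tRNA:Cys-GCA-4-1*, with between 17 and 33 summits each in library 1. The annotation credits a summit to the nearest start site. Only 2 of these 10 genes had a shared interval that met a region at their start site, so this ranking describes their surroundings.

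The widest shared interval, of 2226 bp and 14 summits, was annotated to the 3′ UTR of *CG6005* (chr3R:19017204-19019429), with a highest fold enrichment of 8.91, 8.26 and 5.87. The next were at *lncRNA:CR45597* (2149 bp, within the span of the complexin gene *cpx*), *CG14810* (2049 bp), *galectin* (2023 bp) and *RabX4* (2000 bp), each with 12 or 14 summits. Their highest fold enrichments were between 6.40 and 7.06 in library 1, so none of them was among the strongest sites by fold enrichment. The interval of *lncRNA:CR45597* was among the 14 strongest by pileup, with 773, 684 and 554 fragments.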

How the data were processed

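Per the authors' methods, paired-end reads were trimmed (CutAdapt) and mapped to the genome release dmel_r6.26 (Bowtie2), duplicates were marked and taken out (Picard), and peaks were found in each library on its own by MACS2. Its settings were not given in the sources used here. Per summit, the authors deposited a fold enrichment, a -log10 p-value, a -log10 q-value and a score, which is 10 times the -log10 q-value, rounded down. The authors' comparison table, annotated with ChIPseeker, holds a mean signal (read counts divided by DESeq2 size factors) over all 5 libraries. The authors' log2 fold change of dopamine over GABA neurons, its standard error and statistic as scores, and p-values are also in it and were not used.

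Intervals with several summits were counted once. Positions count from 1. Pileup and local background were recovered from fold enrichment, taken as (pileup + 1) / (background + 1), and the Poisson p-value. All pileups came out whole within 1% of the step to the next whole number. In the dopamine lists 100% of summits had the library-wide background, and in the GABA lists 30.8%, 33.8% and 33.4% did. The background was thus not computed alike in the lists of the 2 neuron types, and no comparison between them was run. The study's supplement lists reads per library, highest among the GABA libraries for library 3. These totals were not used in any value.

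A shared interval took the class and the distance to the start site of the table region with the largest overlap, and 855 met none. For libraries 2 and 3 its value is that of the highest summit inside it, or of the overlapping interval where none lay inside (2.18% and 1.59% of intervals). For 29, 19 and 58 summits without a position, the midpoint of the interval was used. Gene windows were RefSeq spans of Release 6 with 2 kb on each side, and 179 of 181 listed genes matched. The named genes were all of the GABA and LIM lists, the 3 highest and the lowest of each other list, the genes of the 10 strongest summits, the 15 genes with the most summits, the 10 with the most per kb and the 5 widest intervals. Members and lists were chosen with earlier results of these data known. No test was run. Functions were tested on simulated data. Python 3.11.15, numpy 2.4.6, pandas 2.3.3, scipy 1.17.1 and matplotlib 3.10.9 were used. Alternatives were other overlaps, a -log10 q-value of at least 5, other rankings, gene spans without flanks and leaving out each library.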

Additional observations from a re-analysis of the deposited data

How the results depend on the processing

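The number of shared intervals was 36955 and 36474 when intervals were taken from library 2 or 3, 24857 with a reciprocal overlap of 50%, 23884 with a -log10 q-value of at least 5, and between 39546 and 42378 when 1 library was left out. The share of promoters within 1 kb was 52.8%, 55.1% with reciprocal overlap, 59.3% with the stricter q-value, and between 51.2% and 52.9% without 1 library. Of the 9 intervals of the strongest summits of library 1, 2 were also among the strongest by -log10 q-value and 0 by pileup, a ranking added after seeing the data. *Rbp6* had the most summits, 109, but with 46 distinct intervals it came after *shep* (51) and *bru3* (48). The mean percentile of *Gad1* was 97.2 by -log10 q-value, 95.5 by pileup and 90.0 without flanks, since its strongest summit lies outside the gene span. That of *VGAT* was 99.9 by -log10 q-value and 95.2 without flanks, and that of *Lim3* was 98.6 by -log10 q-value and 96.9 by pileup. By pileup, 40.8% of the weakest decile recurred. Except for the flanks, the cause of these shifts was not tested. Promoter sequences and motifs were not run, since no sequence was used here. No paired analysis was possible because the results come from no test.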

Other observations

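Shared intervals were unevenly spaced. The median gap between neighbouring shared intervals was 724 bp, and 133 gaps exceeded 50 kb. The longest, 860526 bp, was on 3L (chr3L:26223143-27083668) and overlapped 2 RefSeq genes, and the next were 814469 bp on X and 734143 bp on 2R. For these gaps, 3, 2 and 2 intervals of library 1 and 6, 7 and 32 of library 3 were counted. How well reads can be mapped there was not tested. At the other end, the window of 100 kb with the most bases covered, chr3R:16200001-16300000 with the gene *tara*, held 54 shared intervals that covered 19.5% of it. The median of 1225 windows was 31 intervals and 8204 bp. A window at chr2R:10500001-10600000 with the BTB factor genes *lola* and *psq* held 63 shared intervals, and that with the active zone gene *brp*, chr2R:9500001-9600000, held 63 too.

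Of the 35803 shared intervals, 19116 (53.4%) met an interval of both dopamine lists, 4683 met 1 of them and 12004 (33.5%) met none. The background of the dopamine lists was a single value per library (12.3 and 7.79 fragments), so these counts were not read as differences between the neuron types.

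At *w*, the usual eye colour marker of fly transgenes, the interval over the start site had a fold enrichment of 4.18, 4.75 and 3.01 in libraries 1 to 3 and pileups of 74, 89 and 71 fragments. The highest site of its window, with 8.46, 10.5 and 7.37, met a region that overlaps a start site of *CG32795*.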
